A study of Caenorhabditis elegans with 12 samples.

Results

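The response of *C. elegans* larvae to cadmium (Cd) was compared between the L3 and the L4 stage by the stage by Cd interaction, the log2 effect of Cd at L3 minus the log2 effect of Cd at L4. All 12 of the 12 libraries of the series entered it, 3 biological replicates in each of 4 groups, and the value was computed for 17196 genes with enough counts. A positive log2 difference means that the Cd effect was higher at L3 than at L4, and a negative one that it was lower at L3. A gene was called when the adjusted p was at most 0.05 (edgeR's quasi-likelihood test, Benjamini-Hochberg over all 17196 genes) and the absolute log2 difference at least 1.

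The worms were synchronized wild-type N2 hermaphrodites kept at 20 °C on nematode growth medium with *E. coli* OP50. They received 0 or 20 µM CdCl2 from L1 on and were collected at L3 after 27 h or at L4 after 47 h. Whole worms were used and poly-A RNA was sequenced, so fewer cells of a type and less RNA per cell cannot be told apart. Each stage had its own length of exposure, and stage and exposure length cannot be told apart either.

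Metallothioneins are small cysteine-rich proteins that bind Cd and are induced by it in the worm intestine. Larvae shed and rebuild their cuticle at every moult. In that cycle the epidermis secretes collagens, cuticlins, hedgehog-related proteins and metalloproteases in a fixed order, so the transcripts of these genes rise and fall within a larval stage. Each group was collected at a single time. For these genes, a shift of the worms within the cycle and a change of level at a given point of it therefore cannot be told apart.

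The libraries held between 23899991 and 44766672 counts, and the first principal component, with 91.9% of the variance, separated the stages. Markers of the adult cuticle and the germ line separated the 27 h from the 47 h libraries. Whether the 47 h worms were all L4 or already entering adulthood was not tested. The summed vitellogenins, the yolk proteins, lay between 10.4 and 15.4 CPM (counts scaled to library size) at L3 and between 17942 and 52559 CPM at L4. *col-19*, an adult cuticle collagen, lay between 0.363 and 1.08 CPM at L3 and between 1357 and 2221 CPM at L4. The summed major sperm proteins lay between 2.62 and 3.04 CPM at L3 and between 3860.1 and 4347 CPM at L4. The source field of the libraries titled as exposed reads Cd 0, while their titles and treatment give 20 µM. *mtl-1* was higher in all 6 libraries labelled exposed than in the 6 unexposed ones. On the second component, with 3.10% of the variance, unexposed L3 replicate 3 (-1.42) stood apart from replicates 1 and 2 (-50.2 and -40.4), unexposed L4 replicate 2 (39.5) from replicates 1 and 3 (0.129 and 9.04), and exposed L4 replicate 1 (-39.4) from replicates 2 and 3 (-4.30 and -7.58). Exposed L4 replicates 2 and 3 were close to each other, with a chi-square per degree of freedom of 3.33 against 13.1 to 99.2 in other pairs. A fit without those 3 libraries that stood apart, chosen after seeing the data, is given beside the gene groups it touches.

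The Cd response differed between the stages for 1072 of 17196 genes (6.23%), and most of them had a lower Cd effect at L3. 963 genes (5.6% of those tested, 89.8% of the calls) were lower at L3 and 109 (0.634%) higher. For the lower group the median log2 effect of Cd was -1.37 at L3 and 0.79 at L4, and 949 of the 963 had an effect below 0 at L3 and above 0 at L4. For the higher group the medians were 0.88 and -0.50, and 95 of the 109 had opposite signs in the other sense. These genes were chosen by the difference of both effects, so their signs are a description. Opposite signs were also found over all tested genes, 29.6% below 0 at L3 and above 0 at L4 and 27.9% the other way. DESeq2's Wald test called 1234 genes, of which 78.2% were lower at L3. Scaling by the size factors of DESeq2 moved the median log2 difference of all genes from 0.01 to 0.11.

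The difference was rarely a reversal of calls. Among the 963 lower genes, 567 passed the test at L3 alone (called lower), 31 at L4 alone (called higher), 6 at both and 359 at neither. Cd effects in the same fit were called for 703 genes at L3 (4.09%) and for 93 at L4 (0.541%). The 6 genes called lower at L3 and higher at L4, named here after their values were seen, were *T08G5.3*, *W09G12.10*, *mltn-12*, *C02F4.4*, *F52A8.3* and *F30A10.2*. *T08G5.3* stood at 23.7, 25.2 and 17.95 CPM in unexposed and 6.11, 3.94 and 5.58 CPM in exposed L3, and at 0.962, 0.574 and 0.873 CPM in unexposed and 3.74, 1.89 and 1.33 CPM in exposed L4. Its libraries did not overlap at either stage, and its log2 difference was -3.59 (SE 0.468, adjusted p = 0.00369). Among the 109 higher genes, 27 were called higher at L3 alone, 3 higher at both stages (*mtl-1*, *T08G5.1* and *cdr-1*), 3 lower at L4 alone (*spp-23*, *math-45* and *F13H6.4*) and 76 at neither.

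**Figure D1:**
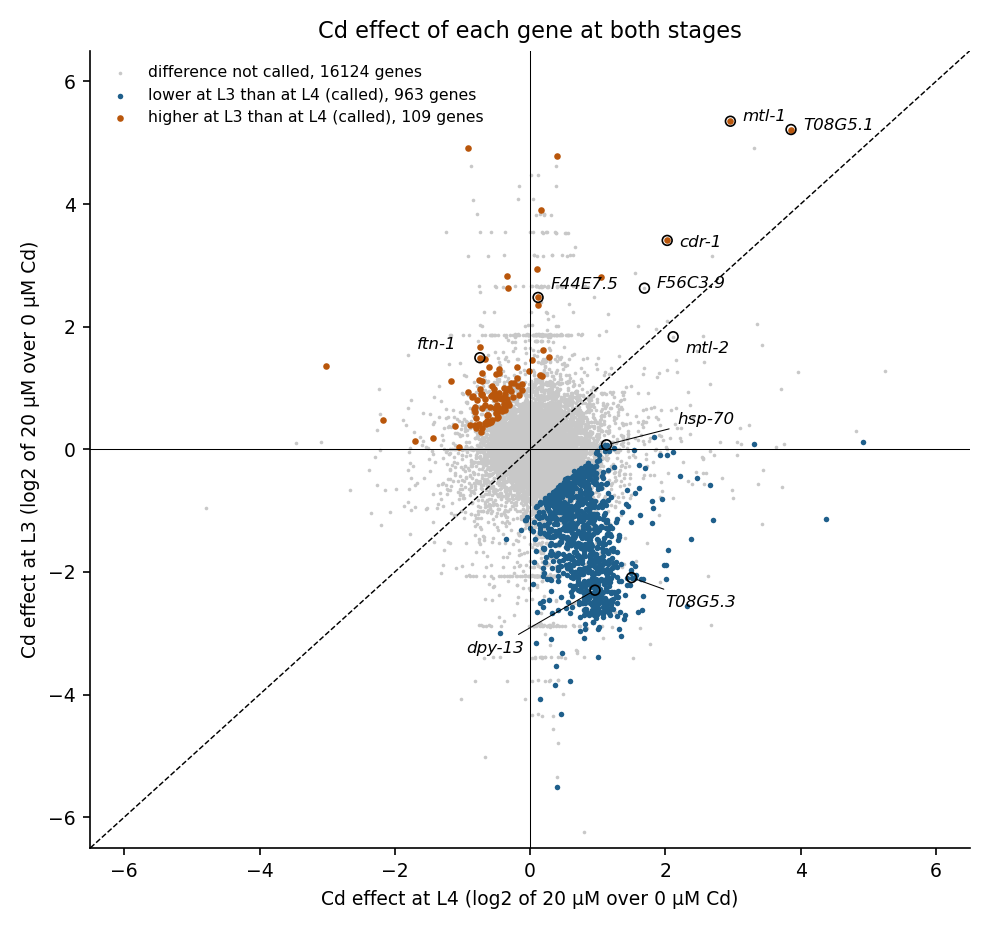
Log2 effect of Cd at L4 (x axis) against that at L3 (y axis) for the 17196 genes tested, each point 1 gene, with the 963 genes called lower and the 109 called higher at L3 in colour and the line of equal effects. The lower group lies mostly in the quadrant with effects below 0 at L3 and above 0 at L4, and *mtl-1*, *T08G5.1* and *cdr-1* lie above 0 on both axes.

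The counts of calls depended on single libraries. The total was 635 without unexposed L3 replicate 1, 698 without unexposed L3 replicate 2 and 702 without exposed L4 replicate 1, and the lower group fell to 572 without unexposed L3 replicate 1. The higher group ranged from 37 without unexposed L3 replicate 2 to 318 without unexposed L3 replicate 3, with 41 without unexposed L4 replicate 2, 50 without exposed L4 replicate 1, 61 without exposed L3 replicate 2 and 63 without unexposed L3 replicate 1 between. The count at L3 was 295, 361 and 1216 without unexposed L3 replicate 1, 2 and 3, and 282 and 383 without exposed L3 replicate 1 and 2. The count at L4 was 25, 24 and 11 without exposed L4 replicate 1, 2 and 3, 19 without unexposed L4 replicate 2, 52 and 42 without exposed L3 replicate 2 and 3, and 171 without unexposed L3 replicate 3. Of the lower genes 540 and of the higher genes 21 were called in every fit that left out 1 library.

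Genes of the cuticle and its secretion made up 16.4% of the lower group. Of 458 tested genes in the cuticle lists (collagens, cuticlins, apical matrix, hedgehog-related and patched-related genes, metalloproteases, *abu* and *pqn* genes and regulators), 158 were lower at L3 (34.5%, against 5.6% of all tested) and 5 higher. Their median log2 difference was -0.78, against 0.01 over all genes. The lower count ranged from 110 to 176 when 1 library was left out and was 154 without the 3 libraries that stood apart. The higher count was less steady, at 0 without unexposed L3 replicate 2, unexposed L4 replicate 2 or exposed L4 replicate 1, 1 without unexposed L3 replicate 1, 2 without exposed L3 replicate 2, 23 without unexposed L3 replicate 3 and 42 without the 3 libraries. The lists differed from one another in how many members were called, from 24 of 49 in the hedgehog-related genes to 3 of 43 in the ADAMTS and other matrix proteases.

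**Figure D2:**
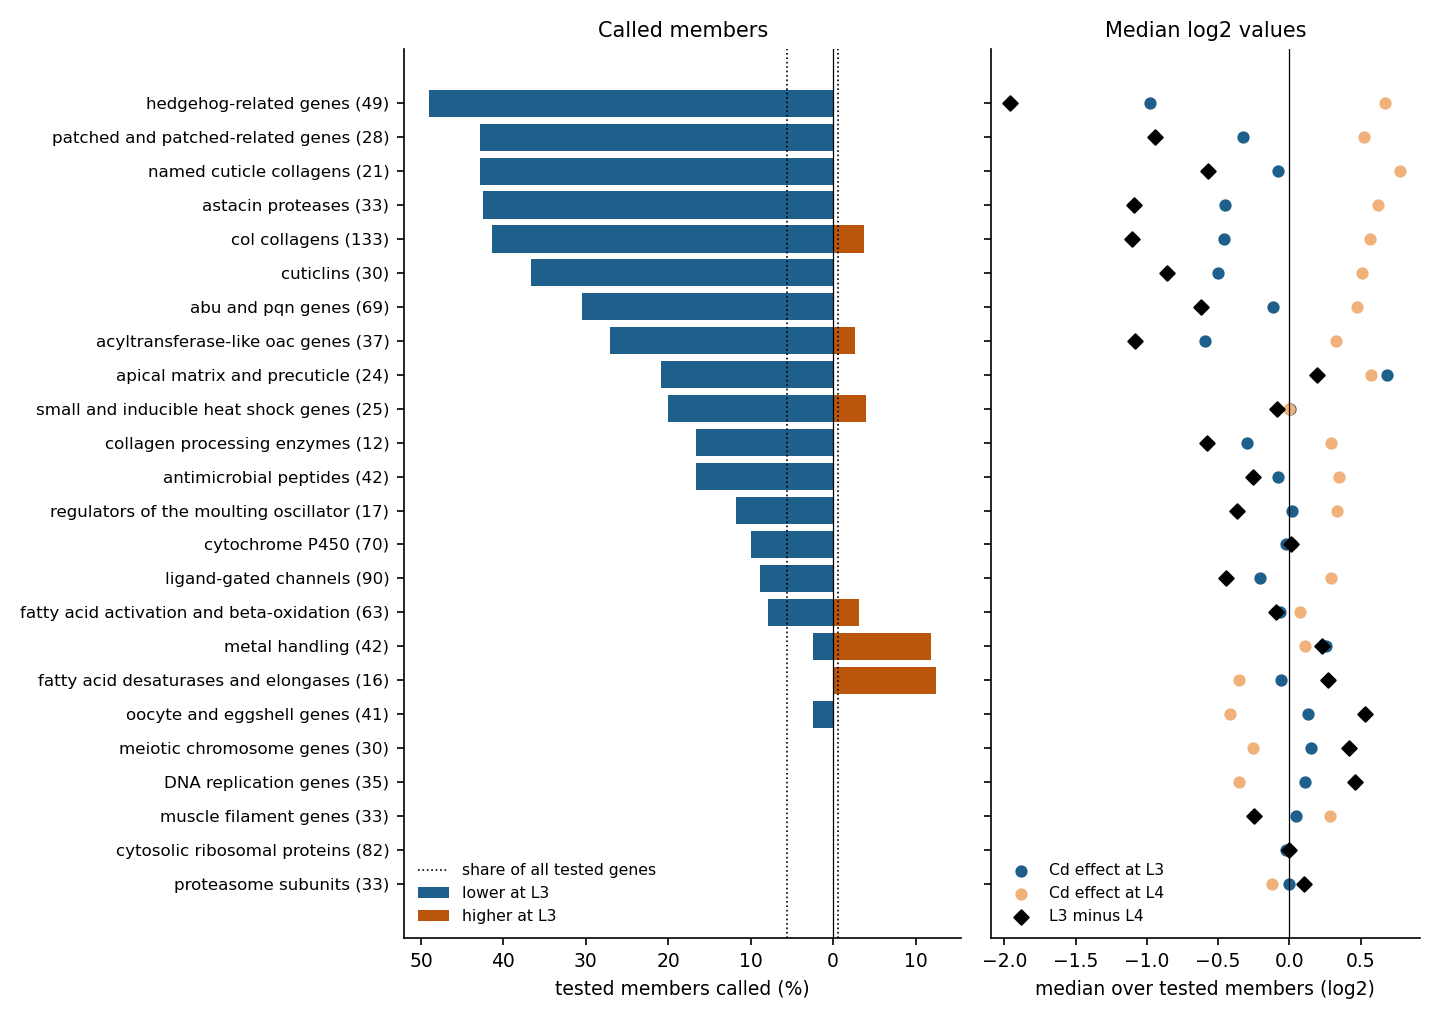
Percent of tested members called lower or higher at L3 (left, dotted lines for the shares of all tested genes) and median log2 values of the Cd effect at L3, at L4 and of their difference (right) for 24 gene lists, with the number tested in brackets. Hedgehog-related genes have the lowest median difference (-1.96), while ribosomal proteins (0.00) and proteasome subunits (0.10) lie near 0.

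Collagens form the bulk of the cuticle. Of 21 collagens with a *dpy*, *rol*, *sqt*, *lon* or *bli* type of name, 9 were lower at L3 and 0 higher, with a median log2 difference of -0.57. *dpy-13* (chromosome IV, 4235614 to 4236710, WBcel235) stood at 3653, 3096 and 1608 CPM in unexposed L3 and at 429, 483 and 787 CPM in exposed L3. At L4 it stood at 467, 234.9 and 496 CPM without and 1204, 547 and 578 CPM with Cd. All exposed L3 libraries thus lay below the unexposed ones, and all exposed L4 libraries above. The log2 effect of Cd on *dpy-13* was -2.30 at L3 (called) and 0.96 at L4 (not called), a log2 difference of -3.26 (SE 0.549, adjusted p = 0.00468).

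The same arrangement of libraries held for further collagens at L3. *dpy-5* stood at 2776, 2526 and 1246 CPM in unexposed and 311, 342 and 561 CPM in exposed L3, and at 403, 176 and 356 CPM in unexposed and 879, 403 and 433 CPM in exposed L4. *rol-6* stood at 631, 546 and 355 CPM in unexposed and 129, 128 and 195 CPM in exposed L3, and its log2 difference was -2.39 (adjusted p = 0.00787). The L3 groups of *dpy-5* and *rol-6* were apart, and their L4 groups overlapped, for *dpy-5* only by the lowest exposed library. *dpy-4* (-3.17), *rol-8* (-2.06), *sqt-1* (-1.94), *sqt-2* (-2.04) and *sqt-3* (-1.88) were also called on the log2 difference, as was *lon-3* (-1.42, adjusted p = 0.0430), whose call was lost in 7 of the 12 fits with 1 library left out (adjusted p from 0.0605 to 0.101), all but those without unexposed L3 replicate 3, unexposed L4 replicate 1, exposed L3 replicate 3 or exposed L4 replicate 2 or 3. Summed over the list, named collagens made up 14764, 12820.5 and 9563 CPM in unexposed L3 and 4450.0, 4621 and 6309 CPM in exposed L3.

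Among 133 tested *col* genes, 55 were lower at L3 and 5 higher, with a median log2 difference of -1.1. *col-182* had the log2 difference furthest below 0 among those named here. It stood at 51.8, 47.9 and 22.1 CPM in unexposed L3, 5.52, 5.64 and 8.12 CPM in exposed L3, 6.02, 2.27 and 4.63 CPM in unexposed L4 and 16.9, 7.40 and 8.45 CPM in exposed L4, with a log2 difference of -3.99 (SE 0.574, adjusted p = 0.00375). *col-41* was expressed mainly at L3, at 1774, 1558 and 818 CPM without and 209.9, 229 and 346 CPM with Cd, and its log2 effects were -2.40 at L3 and 0.46 at L4. The 5 higher members were *col-42*, *col-98*, *col-142*, *col-103* and *col-80*, with log2 differences from 1.35 to 1.85. *col-42* stood at 287, 306 and 666 CPM in unexposed and 757, 793 and 760.0 CPM in exposed L3, and at 543, 972 and 795 CPM in unexposed and 317, 502 and 471 CPM in exposed L4. Unexposed L3 replicate 3 was here the unexposed library nearest the exposed ones. The number of higher members was 1 without unexposed L3 replicate 1, 2 without exposed L3 replicate 2, 0 without unexposed L3 replicate 2, unexposed L4 replicate 2 or exposed L4 replicate 1, 12 without unexposed L3 replicate 3 and 15 without the 3 libraries that stood apart. Collagen genes are similar in sequence, and how reads that map to several places were counted is not given in the sources used here.

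Furrow collagens, which shape the ring-like grooves of the cuticle and are made early in the cycle, did not share the pattern of *dpy-13*. None of the 6 (*dpy-2*, *dpy-3*, *dpy-7*, *dpy-8*, *dpy-9* and *dpy-10*) was called, with log2 differences from 0.05 to 0.52 and a smallest adjusted p of 0.491. *dpy-7* stood at 143, 133 and 372 CPM in unexposed L3, 336, 326 and 379.8 CPM in exposed L3, 14.8, 8.74 and 13.1 CPM in unexposed L4 and 27.4, 13.04 and 12.1 CPM in exposed L4. Unexposed L3 replicate 3 lay with the exposed libraries, and replicates 1 and 2 lay below them. Without the 3 libraries that stood apart all 6 furrow collagens were called higher at L3, with log2 differences from 1.29 to 1.78, and *dpy-7* reached 1.48. In that fit 8 named collagens were lower and 8 higher.

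Apical matrix and precuticle genes, which coat the epidermis before the new cuticle is laid down, included both patterns. Of 24 tested, 5 were lower at L3 and 0 higher, with a median log2 difference of 0.19. The 5 were *lpr-7* (-3.20), *ram-5* (-2.95), *mlt-10* (-2.46), *mlt-8* (-1.58) and *bus-8* (-1.57), in log2 differences. The call of *mlt-8* was lost without unexposed L3 replicate 1 (adjusted p = 0.0621) or exposed L3 replicate 1 (0.0602) or 2 (0.0517). *mlt-10*, which is needed for moulting, stood at 204, 193 and 138 CPM in unexposed L3, 55.2, 52.1 and 71.3 CPM in exposed L3, 46.6, 27.6 and 43.1 CPM in unexposed L4 and 98.5, 60.1 and 56.5 CPM in exposed L4, and its groups did not overlap at either stage. *noah-1*, a zona pellucida domain protein of the matrix, stood at 309, 311 and 838 CPM in unexposed and 804, 811 and 845 CPM in exposed L3, with replicate 3 of the unexposed group among the exposed values. Its log2 difference was 0.22 (adjusted p = 0.796) and became 1.31 without the 3 libraries that stood apart. The list then held 5 lower and 13 higher members, and without unexposed L3 replicate 3 alone it held 5 higher ones. Why replicate 3 differed was not tested.

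**Figure D3:**
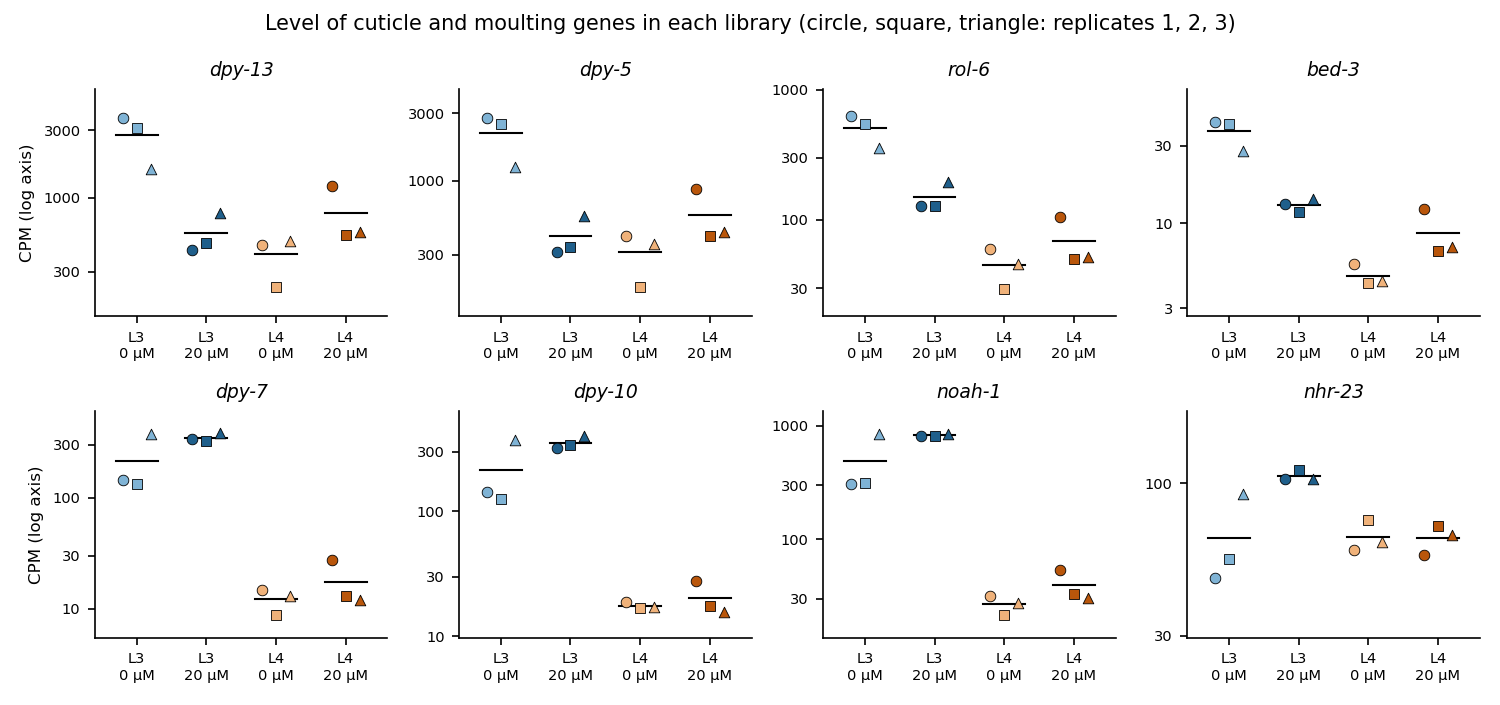
CPM per library (log axis) of 8 collagen, matrix and regulator genes in the 4 groups, with the group mean as a line and replicates 1, 2 and 3 as circle, square and triangle. *dpy-13*, *dpy-5*, *rol-6* and *bed-3* are lower in all exposed L3 libraries, while for *dpy-7*, *dpy-10*, *noah-1* and *nhr-23* unexposed L3 replicate 3 lies near the exposed libraries.

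Cuticlins are zona pellucida domain proteins of the cuticle. Of 30 tested, 11 were lower at L3 and 0 higher, with a median log2 difference of -0.86. *cut-2* stood at 2626, 2530.2 and 1213 CPM in unexposed L3 and 289, 389 and 543 CPM in exposed L3, a log2 effect of -2.38. At L4 it stood at 114, 56.9 and 127 CPM without and 275, 127 and 132 CPM with Cd, a log2 effect of 0.84 that was not called. The L3 groups were well apart, and at L4 the lowest exposed library lay just under the highest unexposed one. *cutl-5* (-3.70, adjusted p = 0.00375) and *cut-4* (-2.77, adjusted p = 0.00426) had log2 differences of like size. The number of called cuticlins was 3 without unexposed L3 replicate 1, 5 without unexposed L3 replicate 2, 4 without exposed L4 replicate 1, 6 without unexposed L4 replicate 2 and 7 without exposed L3 replicate 1 or 3.

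Hedgehog-related genes had the lowest median of the lists of the cuticle. The worm has many secreted hedgehog-related proteins (*grl*, *grd*, *wrt*, *qua* and *hog* genes), several of which act in moulting. Of 49 tested, 24 were lower at L3 and 0 higher, and the median log2 effect of Cd was -0.98 at L3 and 0.67 at L4. *grl-5* stood at 70.7, 65.9 and 41.9 CPM in unexposed L3, 9.47, 7.13 and 16.1 CPM in exposed L3, 19.9, 9.84 and 18.3 CPM in unexposed L4 and 41.5, 21.4 and 22.5 CPM in exposed L4. Both stages had groups that did not overlap, in opposite directions, and the log2 difference was -3.27 (SE 0.498, adjusted p = 0.00397). *grd-11* (-3.65), *wrt-8* (-3.65), *grd-5* (-2.52) and *hog-1* (-2.07) were called in the same direction on the log2 difference. *qua-1*, which is needed for moulting, was the member called at L4. Its level was 44.1, 25.1 and 39.8 CPM in unexposed and 104.2, 58.4 and 57.0 CPM in exposed L4 (log2 effect 1.01, adjusted p = 0.0395), and its L3 effect was -0.61 (not called).

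The summed level of the hedgehog-related genes showed the same order. It was 4767, 4422 and 3000.3 CPM in unexposed L3 and 1686, 1806 and 2155 CPM in exposed L3, with the lowest unexposed library above the highest exposed one. At L4 it was 1089, 620.4 and 995 CPM without and 2122, 1217 and 1266 CPM with Cd, again without overlap and in the other direction. Without the 3 libraries that stood apart 24 members were lower and 1 higher.

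Patched and patched-related proteins are sterol-sensing membrane proteins related to the receptor of hedgehog in other animals. Of 28 tested, 12 were lower at L3 and 0 higher, with a median log2 difference of -0.94. *ptr-16* stood at 53.7, 55.996 and 29.2 CPM in unexposed L3, 6.84, 6.70 and 10.9 CPM in exposed L3, 8.59, 5.08 and 7.01 CPM in unexposed L4 and 17.5, 8.51 and 9.38 CPM in exposed L4. Its L3 groups were far apart and its L4 groups overlapped by 1 library, with a log2 difference of -3.27 (SE 0.460, adjusted p = 0.00369). *ptr-6* (-2.56) and *ptr-20* (-2.47) were called as well on the log2 difference, with L4 effects of 0.41 and 0.41 that were not called.

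**Figure D4:**
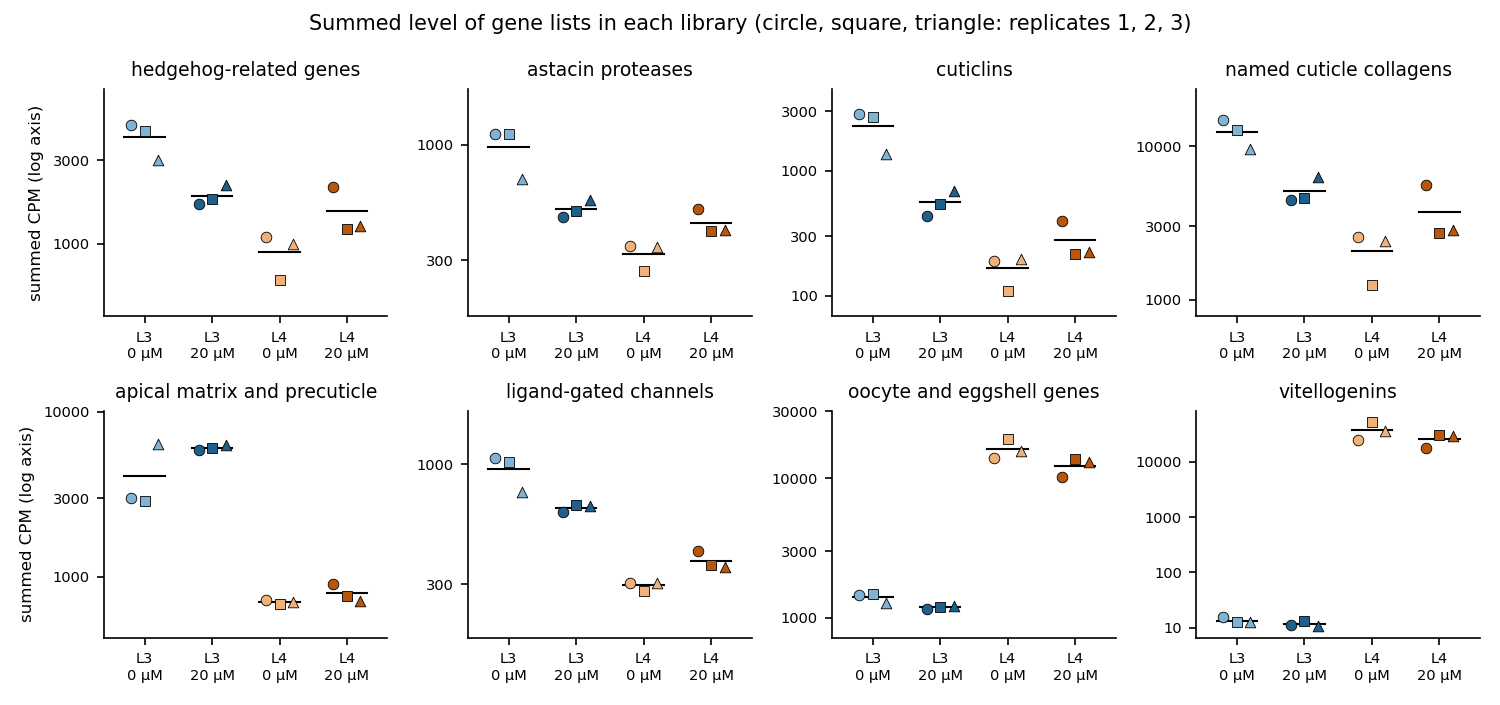
Summed CPM per library (log axis) of 8 gene lists in the 4 groups, with the group mean as a line and replicates as circle, square and triangle. Hedgehog-related genes, astacins, cuticlins and named collagens are lower in every exposed than in every unexposed L3 library, while in the apical matrix list unexposed L3 replicate 3 lies with the exposed libraries.

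Metalloproteases of the astacin family process collagens and open the old cuticle. Of 33 tested astacins, 14 were lower at L3 and 0 higher, and between 13 and 15 were lower when 1 library was left out. *nas-36*, which is needed to shed the old cuticle, stood at 99.4, 109.9 and 51.6 CPM in unexposed L3 and 17.8, 15.1 and 19.6 CPM in exposed L3, and its log2 difference was -3.04 (SE 0.456, adjusted p = 0.00383). *nas-37*, which acts in the same step, was not called (-0.34, adjusted p = 0.243), with 47.4, 42.4 and 56.2 CPM in unexposed and 39.3, 38.6 and 49.1 CPM in exposed L3. The L3 groups of *nas-36* were apart and those of *nas-37* overlapped. *nas-23* (-3.60) and *nas-7* (-3.27) had log2 differences furthest from 0 among the astacins named here.

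Of the 43 ADAMTS and other matrix proteases, 3 were lower at L3 (6.98%, near the 5.6% of all tested) and 0 higher. They were *adt-1* (an ADAMTS protease), *zmp-6* (a matrix metalloprotease) and *nep-1* (a neprilysin). *adt-1* stood at 89.004, 96.2 and 40.6 CPM in unexposed and 11.8, 14.8 and 17.95 CPM in exposed L3. In L4 worms the level was 30.2, 16.5 and 23.7 CPM without and 60.1, 44.6 and 42.0 CPM with Cd. Neither stage overlapped and the log2 difference was -3.40 (SE 0.427, adjusted p = 0.00369). *zmp-6* had a log2 difference of -3.64 and *nep-1* of -1.55. Of 12 enzymes of collagen processing and crosslinking, 2 were lower at L3, the peroxidase *mlt-7* (-1.48, adjusted p = 0.0105) and *doxa-1* (-1.59, adjusted p = 0.0165), the maturation factor of the dual oxidase. *doxa-1* was not called without unexposed L3 replicate 1 (adjusted p = 0.0548) or exposed L3 replicate 1 (adjusted p = 0.0513).

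The *abu* and *pqn* genes encode glutamine- and asparagine-rich proteins, many of which belong to the lining of the pharynx. Of 69 tested, 21 were lower at L3 and 0 higher, with a median log2 difference of -0.62. *abu-12* stood at 95.7, 89.1 and 44.99 CPM in unexposed L3, 10.8, 10.5 and 16.4 CPM in exposed L3, 15.2, 8.42 and 14.02 CPM in unexposed L4 and 36.6, 19.2 and 19.6 CPM in exposed L4, and *pqn-32* and *abu-14* had log2 differences of -2.98 and -3.28. The *abu-12* groups did not overlap at either stage. The count of lower members was 10 without unexposed L3 replicate 1 or exposed L3 replicate 1, 11 without unexposed L3 replicate 2 or exposed L4 replicate 1, and 12 without unexposed L4 replicate 2.

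Attachment of the epidermis to the cuticle was represented by *mup-4*, a transmembrane protein of the hemidesmosomes, which was among the genes with the smallest adjusted p. It stood at 538, 617 and 299.8 CPM in unexposed L3 and 112, 125.6 and 138 CPM in exposed L3, and at 184, 155 and 157 CPM in unexposed L4 and 250.0, 211 and 198 CPM in exposed L4. No library of one group reached the other at either stage. The log2 effects were -1.95 at L3 (called) and 0.41 at L4 (not called).

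Of 17 tested regulators of the moulting cycle, 2 were lower at L3 (11.8%, against 5.6% of all genes), the zinc finger gene *bed-3* and the nuclear receptor gene *nhr-25*, both of which are needed for moulting. *bed-3* (chromosome IV, 9916530 to 9921996) stood at 41.8, 40.8 and 27.7 CPM in unexposed L3, 13.1, 11.8 and 14.1 CPM in exposed L3, 5.57, 4.29 and 4.39 CPM in unexposed L4 and 12.3, 6.75 and 7.09 CPM in exposed L4. *bed-3* did not overlap between groups at either stage, and its log2 difference was -2.36 (SE 0.322, adjusted p = 0.00369). *nhr-25* stood at 37.4, 38.1 and 24.2 CPM in unexposed and 18.4, 18.01 and 17.1 CPM in exposed L3 and lay between 1.25 and 1.78 CPM at L4, with a log2 difference of -1.25. *nhr-23*, a nuclear receptor gene that drives the cycle, had a log2 difference of 0.73 (adjusted p = 0.101, not called). Its level was 47.2, 54.9 and 92.0 CPM in unexposed and 103.6, 111 and 103 CPM in exposed L3, with replicate 3 of the unexposed group nearest the exposed one.

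Outside the cuticle lists, of 37 tested *oac* genes, which encode acyltransferase-like membrane proteins, 10 were lower at L3 (27.0%, against 5.6% of all tested) and 1 (*oac-22*) higher. *oac-30* (-3.87) and *oac-1* (-3.55) had log2 differences furthest below 0 among those named, and *oac-46* had a log2 effect of -0.44 at L3 and 0.75 at L4. *oac-22* lay below 1 CPM in all libraries and was not called in 7 of the fits with 1 library left out (unexposed L3 replicate 1, any exposed L3 replicate, unexposed L4 replicate 2 or exposed L4 replicate 1 or 3), with adjusted p from 0.0537 to 0.0804. Of 90 ligand-gated channel genes 8 were lower (8.89%) and 0 higher, a share nearer that of all genes. *lgc-22* stood at 112, 98.1 and 71.8 CPM in unexposed L3, 20.5, 15.3 and 28.4 CPM in exposed L3, 22.6, 20.8 and 23.5 CPM in unexposed L4 and 32.6, 26.6 and 24.3 CPM in exposed L4, a log2 difference of -2.45 (SE 0.292, adjusted p = 0.00369). *lgc-21* had a log2 difference of -3.74. Without unexposed L3 replicate 1 or 2 the channel count was 5.

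Genes with a higher Cd effect at L3 included part of the metal handling list. Of 42 tested members, 5 were higher at L3 (*mtl-1*, *T08G5.1*, *cdr-1*, *ftn-1* and *hrg-1*), 11.9% against 0.634% of all tested. The 1 lower member was *zipt-22* (2.38%, against 5.6%), and the median log2 difference was 0.23. *T08G5.1* has no annotated function. The study singled it out for its Cd response in these data, so its count in the list is not independent of them. *mtl-1*, a metallothionein (chromosome V, 6691371 to 6691863), stood at 5.11, 5.73 and 6.22 CPM in unexposed L3 and 233, 211 and 256 CPM in exposed L3. At L4 it stood at 2.30, 3.47 and 1.34 CPM without and 14.8, 18.1 and 22.6 CPM with Cd. It rose at both stages, by 40.8-fold at L3 and 7.79-fold at L4, and the log2 difference between these was 2.39 (SE 0.332, adjusted p = 0.00369).

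*mtl-2*, the other metallothionein, rose at both stages too. It stood at 203, 182 and 137 CPM in unexposed L3, 642, 523 and 696 CPM in exposed L3, 47.3, 84.8 and 27.3 CPM in unexposed L4 and 233, 213 and 244 CPM in exposed L4. Its groups were apart at both stages, with log2 effects of 1.84 and 2.12, and the log2 difference of -0.28 (SE 0.412, adjusted p = 0.692) was not called.

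*cdr-1*, a Cd-responsive gene of the glutathione S-transferase superfamily, stood at 3.59, 3.54 and 3.54 CPM in unexposed and 37.95, 39.1 and 36.2 CPM in exposed L3. Its L4 level was 2.24, 2.3497 and 2.65 CPM without and 5.43, 10.8 and 13.1 CPM with Cd, so the exposed libraries were higher at both stages. Its log2 difference of 1.38 (adjusted p = 0.0225) lost its call without unexposed L3 replicate 2 (adjusted p = 0.0569), exposed L3 replicate 2 (0.0518) or unexposed L4 replicate 3 (0.0513). *T08G5.1*, of no annotated function, stood at 0.649, 0.708 and 0.531 CPM in unexposed L3, 23.3, 23.2 and 23.9 CPM in exposed L3, 0.224, 0.355 and 0.204 CPM in unexposed L4 and 2.58, 4.10 and 4.70 CPM in exposed L4. Its log2 difference of 1.36 (adjusted p = 0.0445) was called only without exposed L4 replicate 1 or 3, and the other 10 fits with 1 library left out gave adjusted p from 0.0541 to 0.170.

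Further genes that rose with Cd at both stages were not called for the difference. The lipase gene *lipl-4* had log2 effects of 3.15 at L3 and 2.69 at L4, a difference of 0.47 (SE 0.523, adjusted p = 0.585). *K04A8.20* had 4.91 and 3.31 (difference 1.6, SE 0.816, adjusted p = 0.206), from few counts, with levels below 1 CPM in all unexposed libraries. *F56C3.9* had 2.63 and 1.69, and its log2 difference of 0.94 (adjusted p = 0.0366) was under the minimum of 1.

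The iron and heme genes called had Cd effects above 0 at L3 and below 0 at L4. *ftn-1*, a ferritin heavy chain gene that stores iron, stood at 15.4, 10.01 and 13.8 CPM in unexposed and 43.6, 33.3 and 33.1 CPM in exposed L3, without overlap. At L4 it stood at 1.88, 5.66 and 3.37 CPM without and 2.17, 2.11 and 2.19 CPM with Cd, where the groups overlapped. The log2 difference was 2.24 (SE 0.421, adjusted p = 0.00704), and the effects were 1.49 at L3 and -0.74 at L4 (the latter not called). *hrg-1*, a heme transporter gene, stood at 109, 81.8 and 127 CPM in unexposed and 163, 156 and 158 CPM in exposed L3, and at 17.6, 24.7 and 18.01 CPM in unexposed and 13.6, 13.9 and 15.3 CPM in exposed L4. Its groups did not overlap at either stage and its log2 difference was 1.08, which fell under the minimum without unexposed L3 replicate 2 (0.92) or unexposed L4 replicate 2 (0.90). The other ferritin gene *ftn-2* (0.70, adjusted p = 0.0277) and *hizr-1*, the nuclear receptor gene of the response to high zinc (0.83, adjusted p = 0.0239), passed the adjusted p and had log2 differences under 1. The zinc transporter gene *zipt-22* was lower at L3 (-1.95, adjusted p = 0.0170), at 3.46, 3.45 and 1.95 CPM in unexposed and 0.613, 1.21 and 1.34 CPM in exposed L3, and lost its call without unexposed L3 replicate 1 (adjusted p = 0.0506). The number of metal genes called higher was 2 without unexposed L3 replicate 2, 3 without unexposed L4 replicate 2 or 3 or exposed L3 replicate 2, and 8 without unexposed L3 replicate 3 or without the 3 libraries that stood apart.

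Among genes outside the lists, *F44E7.5* had a log2 difference of 2.36 (SE 0.191, adjusted p = 0.000298). It stood at 9.09, 7.94 and 8.23 CPM in unexposed L3, 48.7, 46.6 and 44.9 CPM in exposed L3, 46.6, 40.8 and 56.4 CPM in unexposed L4 and 42.8, 57.8 and 55.4 CPM in exposed L4. Exposed L3 libraries thus stood at the level that both L4 groups had, and the L4 groups overlapped. *acp-6*, an acid phosphatase gene, stood at 62.3, 65.6 and 147 CPM in unexposed L3, 233, 247 and 219 CPM in exposed L3, 216, 379 and 248 CPM in unexposed L4 and 129, 225 and 201 CPM in exposed L4. Its L3 groups were apart and its L4 groups overlapped, and the log2 difference was 1.94 (adjusted p = 0.0154). *zip-11*, a bZIP transcription factor gene, had a log2 difference of 1.02 (adjusted p = 0.00633) that fell to between 0.93 and 0.99 without unexposed L3 replicate 2, unexposed L4 replicate 1 or 3, or exposed L4 replicate 3. *T07D3.9* had log2 effects of 0.61 at L3 and -0.81 at L4, in groups that did not overlap at either stage, and *F11A5.9* and *F13C5.5* had log2 differences of 1.77 and 1.38.

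**Figure D5:**
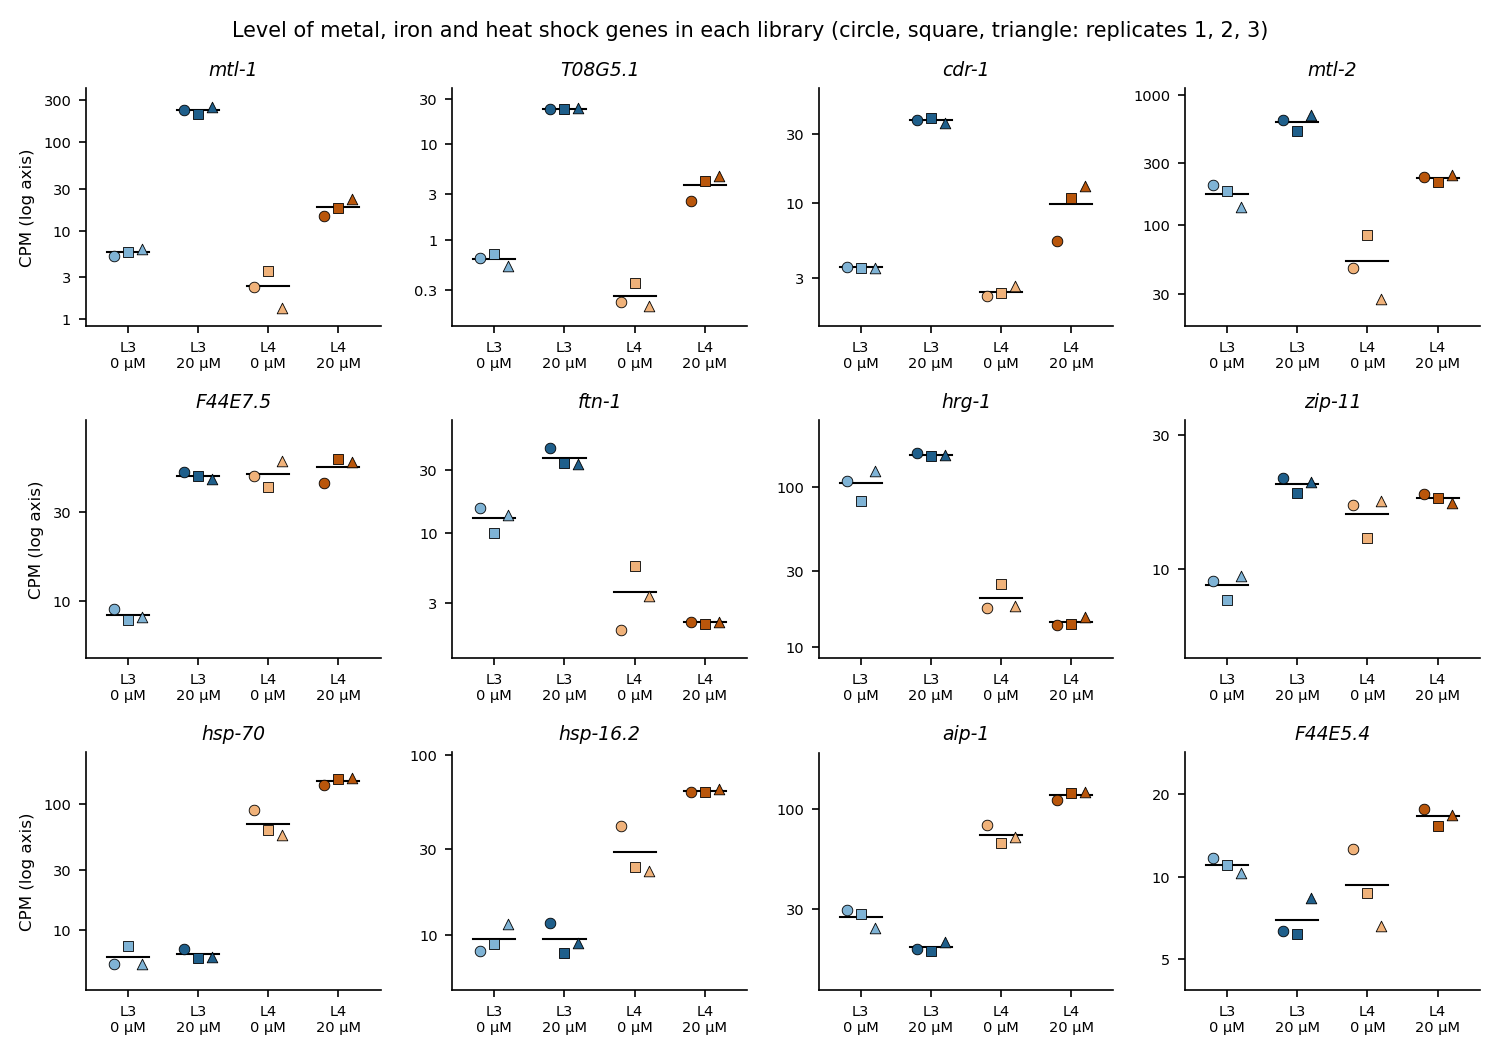
CPM per library (log axis) of 12 genes (metal handling, heat shock, *F44E7.5* and *zip-11*) in the 4 groups, with the group mean as a line and replicates as circle, square and triangle. *mtl-1* and *cdr-1* are higher with Cd at both stages, *ftn-1* and *F44E7.5* at L3, and *hsp-70*, *hsp-16.2* and *aip-1* are higher with Cd at L4.

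Heat shock genes were called in both directions. The list of small and inducible heat shock genes also held *aip-1*, which is arsenite-inducible. Of its 25 tested genes, 5 were lower at L3 (20%, against 5.6% of all tested). They were *hsp-70*, *hsp-16.2*, *F44E5.4*, *F44E5.5* and *aip-1*. The 1 higher gene was *sip-1* (4%, against 0.634% of all tested), where 89.8% of the calls over all genes were lower. The median log2 difference of the list was -0.08 and became 0.02 with size factors of DESeq2. *hsp-70*, the inducible chaperone gene, stood at 5.41, 7.47 and 5.37 CPM in unexposed and 7.14, 5.95 and 6.14 CPM in exposed L3, which overlapped. At L4 it stood at 90.5, 63.2 and 57.3 CPM without and 142, 158 and 162 CPM with Cd and rose by 1.13 on the log2 scale (adjusted p = 0.00862). The log2 difference was -1.06 (SE 0.242, adjusted p = 0.0168), and the call was lost without unexposed L3 replicate 2 (-0.88) or unexposed L4 replicate 2 (-0.99) or 3 (-0.93).

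*hsp-16.2*, a small heat shock protein gene, was at 8.14, 8.83 and 11.4 CPM in unexposed and 11.6, 7.88 and 9.02 CPM in exposed L3, and at 40.5, 23.9 and 22.5 CPM in unexposed and 62.6, 62.2 and 64.9 CPM in exposed L4. The L3 groups overlapped and the L4 groups did not. Its log2 difference of -1.12 (adjusted p = 0.0330) was called only without exposed L3 replicate 1, unexposed L4 replicate 1 or exposed L4 replicate 2, and in the other 9 fits it lay between -1.17 and -0.96, with adjusted p between 0.0471 and 0.0803. *hsp-16.41* had -1.19 (adjusted p = 0.0700, not called).

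*aip-1*, an arsenite-inducible gene that acts with the proteasome, had Cd effects of opposite sign at both stages. It stood at 29.8, 28.4 and 23.8 CPM in unexposed L3, 18.5, 18.2 and 20.1 CPM in exposed L3, 82.6, 65.8 and 70.7 CPM in unexposed L4 and 111, 119.9 and 122 CPM in exposed L4. The groups were apart at both stages, with log2 effects of -0.53 and 0.69 (neither past the minimum of 1) and a log2 difference of -1.22 (SE 0.1498, adjusted p = 0.00369). The near-identical Hsp70 family genes *F44E5.4* (-1.49) and *F44E5.5* (-1.38) may share reads and count as 1 signal. *sip-1*, a small heat shock protein gene of oocytes and embryos, had its level mainly at L4, at 574, 938 and 683 CPM in unexposed and 419, 495 and 498 CPM in exposed worms, with a log2 difference of 1.1 that fell under the minimum without unexposed L4 replicate 2 (0.88). The number of genes of the heat shock list called lower, *aip-1* included in the list, was 3 without unexposed L3 replicate 2 or unexposed L4 replicate 2 or 3. Genes of the stress response of the endoplasmic reticulum (0 of 17) and of mitochondria (0 of 8) were not called in either direction. Of all tested genes 6.23% were called.

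Fat metabolism genes were called in both directions, where 5.6% of all tested genes were lower at L3 and 0.634% higher. Of 16 desaturase and elongase genes 2 were higher at L3 (12.5%) and 0 lower. The 2 were *fat-2* and *fat-3*, which act in the synthesis of polyunsaturated fatty acids. *fat-2* stood at 537, 563 and 765 CPM in unexposed L3, 756, 755 and 763 CPM in exposed L3, 568, 696 and 506 CPM in unexposed L4 and 302, 389.9 and 375 CPM in exposed L4. The L3 groups overlapped, the exposed L4 libraries were all below the unexposed ones, and the log2 difference was 1.02 (adjusted p = 0.0105). *fat-3* had a log2 difference of 1.13 (adjusted p = 0.0240). Without unexposed L3 replicate 2, unexposed L4 replicate 2 or exposed L4 replicate 1 neither was called, and without unexposed L3 replicate 1 or exposed L3 replicate 2 only 1 of them was.

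Of 63 genes of fatty acid activation and beta-oxidation, 5 were lower at L3 (7.94%, near the 5.6% of all tested) and 2 higher (3.17%, against 0.634%). The acyl-CoA synthetase gene *acs-20* stood at 112, 113 and 72.3 CPM in unexposed and 35.9, 35.04 and 41.01 CPM in exposed L3, without overlap, and had a log2 difference of -1.89 (SE 0.326, adjusted p = 0.00494). *acdh-6* (-2.98) and *acs-16* (-1.2) were lower as well, with *ech-1.1* (-1.34) and *acox-1.2* (-1.11), which was called in 2 of the 12 fits with 1 library left out, those without unexposed L3 replicate 3 or unexposed L4 replicate 2. The higher ones were *acs-2* (1.43, adjusted p = 0.0324) and *acdh-2* (1.22, adjusted p = 0.0475). The number of higher calls was 0 without unexposed L3 replicate 1 or 2, exposed L3 replicate 1 or 2 or exposed L4 replicate 1, and 1 without unexposed L4 replicate 2 or 3, exposed L3 replicate 3 or exposed L4 replicate 2. The number of lower calls was 3 without unexposed L3 replicate 1 or 2 or exposed L3 replicate 1.

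Genes of detoxification were called lower at shares between 4.17% and 10%, where 5.6% of all genes were lower and 0.634% higher. Of 70 cytochrome P450 genes 7 were lower (10%) and 0 higher, of 63 UDP-glucuronosyltransferase genes 4 (6.35%) and 0, and of 45 glutathione S-transferase genes 2 (4.44%, *gst-10* and *gsto-3*) and 1 (*gsto-1*). *cyp-14A5* stood at 57.9, 62.4 and 47.6 CPM in unexposed L3, 38.03, 37.7 and 38.1 CPM in exposed L3, 21.2, 12.2 and 16.9 CPM in unexposed L4 and 34.1, 25.9 and 27.7 CPM in exposed L4, apart at both stages, with a log2 difference of -1.36. *ugt-25* had a log2 difference of -1.63 (adjusted p = 0.00468). *gsto-1*, an omega class transferase gene, stood at 42.3, 40.1 and 78.4 CPM in unexposed and 114, 93.7 and 94.9 CPM in exposed L3, and at 11.7, 9.86 and 8.44 CPM in unexposed and 5.996, 7.38 and 7.32 CPM in exposed L4, a log2 difference of 1.45 (adjusted p = 0.0131). The glutathione S-transferase count of lower members was 0 without unexposed L3 replicate 1, exposed L3 replicate 1 or exposed L4 replicate 1, and 1 without unexposed L3 replicate 2 or unexposed L4 replicate 2, while without unexposed L3 replicate 3 the higher count was 4 and without unexposed L4 replicate 1 it was 2. The P450 count was 3 without unexposed L3 replicate 1 and 4 without unexposed L3 replicate 2 or exposed L3 replicate 1, and the UDP-glucuronosyltransferase count was 7 without unexposed L4 replicate 1. Of 24 antioxidant enzyme genes 1 was lower (4.17%), the thioredoxin gene *trx-3*, at 134.3, 114 and 46.5 CPM in unexposed and 13.002, 18.7 and 20.8 CPM in exposed L3 (-3.20, adjusted p = 0.00409). The antioxidant count was 2 without unexposed L3 replicate 3.

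Antimicrobial peptide genes of the epidermis were among the few called at L4. Of 42 tested antimicrobial peptide genes, 7 were lower at L3 (16.7%, against 5.6% of all tested) and 0 higher. *nlp-30* stood at 80.1, 55.1 and 48.6 CPM in unexposed L3, 42.8, 22.1 and 32.2 CPM in exposed L3, 16.1, 8.01 and 14.4 CPM in unexposed L4 and 52.8, 22.7 and 29.96 CPM in exposed L4. It rose at L4 (log2 effect 1.45, adjusted p = 0.0388) and had an effect of -0.92 at L3 (not called), a log2 difference of -2.37 (SE 0.478, adjusted p = 0.00950). *nlp-34* (-2.71) and *cnc-4* (-2.45) had log2 differences in the same direction. The count was 3 without unexposed L3 replicate 1, and 4 without unexposed L3 replicate 2, exposed L3 replicate 2 or exposed L4 replicate 1. Of 149 C-type lectin genes 3 were lower (2.01%, below the 5.6% of all tested), *clec-225*, *clec-229* and *clec-230*. *clec-229* had a log2 difference of -3.93 and *clec-230* of -3.49. The lectin count was 5 without unexposed L3 replicate 3, 6 without unexposed L4 replicate 1, and 2 without unexposed L3 replicate 1 or 2, exposed L3 replicate 1 or 2, unexposed L4 replicate 3 or exposed L4 replicate 1, where *clec-225* (adjusted p = 0.0422 over all libraries) was the gene nearest the threshold.

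The medians of most germ line lists lay above that of all genes. None of 30 meiotic chromosome genes, 32 germ granule and small RNA genes and 35 DNA replication genes passed both thresholds (6.23% of all genes did), with median log2 differences of 0.42, 0.40 and 0.46. The adjusted p alone was passed, on the higher side, by 8, 7 and 8 of them, and by 607 of all 17196 genes (3.53%). Of 41 oocyte and eggshell genes 1 was lower at L3, *cpg-7*, a chondroitin proteoglycan gene (-2.70, adjusted p = 0.00420), while the median of the list was 0.53 and 1 or 2 members were higher in 7 of the fits with 1 library left out (unexposed L3 replicate 2, unexposed L4 replicate 1 or 3, exposed L3 replicate 1 or 3, exposed L4 replicate 2 or 3). The summed level of that list was 14017, 18952 and 15694 CPM in unexposed and 10220.5, 13603 and 12916 CPM in exposed L4, without overlap. Vitellogenins, the yolk proteins, summed to 24849, 52559 and 36123 CPM in unexposed and 17942, 31139 and 29018 CPM in exposed L4, which overlapped, and 0 of 6 were called. None of 32 major sperm protein genes was called (median log2 difference -0.17), and these paralogs may share reads. Without exposed L3 replicate 1, 1 sperm protein gene was called lower.

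Tissue markers were counted in lists of 8 to 11 genes, too short to set against the 6.23% of all genes that were called. In the fit of all libraries none of 11 intestine, 8 body muscle, 10 neuron and 10 germ cell marker genes was called, and of 10 epidermis markers 2 were lower (*nhr-25* and *rdy-2*). Without unexposed L3 replicate 3, 1 intestine and 1 neuron marker were called lower. Median log2 differences were -0.15 for intestine, -0.32 for epidermis, -0.44 for body muscle, -0.30 for neurons and 0.50 for germ cells. The summed germ cell markers lay between 494.2 and 580.3 CPM at L3 and were 2471, 3096 and 2690.5 CPM in unexposed and 1933, 2490.4 and 2438 CPM in exposed L4. The summed epidermis markers were 597, 601 and 906 CPM in unexposed and 892, 858 and 906 CPM in exposed L3. The part of these marker levels in the results above was not tested.

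General cell functions gave no calls, where 6.23% of all genes were called. Cytosolic ribosomal protein genes (0 of 82), proteasome subunit genes (0 of 33), respiratory chain genes (0 of 37) and muscle filament genes (0 of 33) had median log2 differences of 0.00, 0.10, 0.13 and -0.25. The adjusted p alone was passed on the lower side by 6 of the 33 muscle filament genes, and by 1391 of all tested genes (8.09%). No ribosomal, proteasome or respiratory chain gene passed it. Of the muscle filament genes 24 had a log2 difference below 0 and 9 above. The reference gene *rla-1*, a ribosomal protein gene, had a log2 difference of 0.00 (SE 0.130). Muscle filament genes were the exception under other settings, with 2 lower without unexposed L3 replicate 3 and 1 lower without unexposed L4 replicate 2 or 3.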

How the data were processed

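Poly-A RNA of whole *C. elegans* was sequenced in 12 libraries, 3 biological replicates per group. The authors trimmed reads with Trimmomatic 0.36, mapped them with STAR 2.5.2b to WBcel235 and deposited whole-number counts per gene from featureCounts (Subread 1.5.2). Whether strand was used, and how multi-mapping reads were treated, is not given in the sources used here, so overlapping genes and close paralogs may share reads. The counts cover 46546 named genes, and a blank entry (0.0148% to 2.01% of a library) was left out.

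Groups came from titles and treatment. Genes passing filterByExpr (17196) were fitted with all 12 libraries by edgeR 4.0.16 in R 4.3.3 (glmQLFit and glmQLFTest, TMM), with Benjamini-Hochberg adjustment. Calls needed both an adjusted p up to 0.05 and a log2 value of 1 or more in size, the thresholds of the study. CPM values use TMM factors. DESeq2 1.42.0 (Wald test, and its size factors), other filters and folds, the replicate block and leaving out libraries were alternatives. The method was also run on simulated counts with the same spread for all genes and no libraries that stood apart. That run does not bear on how the calls depend on single libraries. An exact test of 3 against 3 libraries cannot go below 0.1 and was not used for single genes.

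Members, the 55 lists and the rule for named genes were chosen with earlier results of these data known. Named were up to 10 genes per direction with the smallest adjusted p and up to 10 with the largest log2 difference (mean of at least 5 CPM), up to 3 called genes per direction in each list, genes the study names, and further list members beside their list's count.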

Additional observations from a re-analysis of the deposited data

Results flagged for a closer look

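The Cd effect differed between the stages by the test of the difference itself for the 963 genes lower and the 109 genes higher at L3, and for the single genes given here as log2 differences with edgeR's quasi-likelihood test. Among genes of the metal handling list these were *mtl-1* (2.39), *ftn-1* (2.24), *cdr-1* (1.38), *T08G5.1* (1.36) and *hrg-1* (1.08). Among genes of the heat shock list they were *hsp-16.2* (-1.12), *hsp-70* (-1.06) and the arsenite-inducible *aip-1* (-1.22). Some of these calls depended on single libraries. Of the 12 fits with 1 library left out, *T08G5.1* was called in 2, *hsp-16.2* in 3, *cdr-1* and *hsp-70* in 9 and *hrg-1* in 10. *mtl-1*, *ftn-1* and *aip-1* were called in all 12. Among genes of the cuticle and its attachment they were *abu-12* (-3.60), *adt-1* (-3.40) and *mup-4* (-2.36), together with the channel gene *lgc-22* (-2.45).

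Genes chosen for the smallest adjusted p that belong to no list above had values in every library that can be read directly. *F44E7.5* (2.36), *F11A5.9* (1.77), *T07D3.9* (1.42), *F13C5.5* (1.38), *Y87G2A.19* (1.04), *Y38E10A.14* (1.02) and *zip-11* (1.02) were higher at L3. *F13C5.5* stood at 20.5, 17.98 and 20.7 CPM in unexposed and 29.5, 46.1 and 42.2 CPM in exposed L3, and at 13.4, 20.5 and 13.2 CPM in unexposed and 11.1, 12.5 and 12.4 CPM in exposed L4, so that its groups were apart at both stages. The call of *Y38E10A.14* was lost without unexposed L3 replicate 2, exposed L3 replicate 2, unexposed L4 replicate 2 or exposed L4 replicate 1 (0.93 to 0.99), and that of *Y87G2A.19* without unexposed L4 replicate 1 (0.89) or exposed L4 replicate 2 (0.98).

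*T08G5.3* (-3.59), *F30A10.2* (-3.0), *lact-8* (-2.90), *T01D1.4* (-2.26) and *F48E3.8* (-1.53) were lower at L3. *F48E3.8* stood at 8.18, 8.97 and 8.28 CPM in unexposed L3, 4.78, 5.21 and 4.83 CPM in exposed L3, 7.81, 8.61 and 7.33 CPM in unexposed L4 and 12.4, 13.8 and 13.7 CPM in exposed L4. Its unexposed libraries were close to one level at both stages, and the exposed ones lay below it at L3 and above it at L4. *lact-8*, a gene with a beta-lactamase domain, stood at 57.3, 58.9 and 28.7 CPM in unexposed and 10.3, 10.4 and 11.3 CPM in exposed L3, with an L4 effect of 0.72 that was not called.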

How the results depend on the processing

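Under the alternatives 44 results were followed, named genes and counts of calls. No called gene among them changed sign, while *F09C8.1*, *lipl-1*, *mtl-2* and *rla-1*, none of them called, did under some. Over these results 909 alternative values were labelled the same as in the main fit, 87 weaker and 16 stronger. Counts of calls were labelled by their ratio to the main count. The 1072 calls became 1998 with no fold minimum and 209 when tested against a fold of 2, and ranged from 635 to 1555 with 1 library left out. The genes lower at L3 (963) were 206 against a fold of 2 and 572 to 1237 with 1 library left out. The genes higher at L3 (109) were 212 with size factors of DESeq2, 269 by DESeq2's Wald test, 195 without a filter, 607 with no fold minimum, 3 against a fold of 2, and 37 to 318 with 1 library left out. The L3 count (703) was 1317 with no fold minimum, 54 against a fold of 2 and 282 to 1216 with 1 library left out. The L4 count (93) was 152 by DESeq2, 335 without a filter, 689 with no fold minimum, 2 against a fold of 2, 13 with exposed L4 replicates 2 and 3 summed, and 11 to 171 with 1 library left out. Without the 3 libraries that stood apart, an alternative chosen after seeing the data, 1321 genes were called (308 higher and 1013 lower, 76.7% lower), 1336 at L3 and 51 at L4, and 918 of the 1072 calls were shared. The split was 80.9% lower with size factors of DESeq2 and 79.5% without unexposed L3 replicate 3. The causes were not tested.

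Deviations from the group mean were correlated between libraries of equal replicate number. Between unexposed and exposed L4 the correlations were 0.38, 0.32 and -0.10 for replicates 1, 2 and 3. Unequal numbers gave -0.41 to 0.25 there. In the other pairs of groups equal numbers gave -0.16 to 0.13. Whether equal numbers mark paired samples cannot be told from these values. The replicate block gave 1120 calls (145 at L4), and 1100 with the block within each stage (159 at L4). The scatter between replicates beyond counting noise, the common biological coefficient of variation, was 0.156 with 8 residual degrees of freedom.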

Other observations

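The vulval and Notch list had 1 lower gene of 21 (4.76%, against 5.6% of all tested), *egl-17*, a fibroblast growth factor gene, at 3.46, 4.31 and 2.62 CPM in unexposed L3, 2.33, 2.70 and 2.68 CPM in exposed L3, 0.626, 0.765 and 0.611 CPM in unexposed L4 and 1.42, 1.28 and 1.22 CPM in exposed L4. Its groups overlapped at L3 and not at L4, and its log2 difference was -1.40 (SE 0.307, adjusted p = 0.0135). Of 83 major facilitator and ABC transporter genes 7 were lower at L3 (8.43%) and 2 higher. The lower count was 3 without unexposed L3 replicate 1, 4 without exposed L3 replicate 1 and 13 without unexposed L3 replicate 3, and the higher count was 4 without unexposed L3 replicate 3, 2 without exposed L4 replicate 2, and 0 or 1 without any other library. The sugar transporter gene *swt-3* stood at 92.4, 133 and 63.4 CPM in unexposed and 40.7, 48.5 and 49.9 CPM in exposed L3, which were apart, and had a log2 difference of -1.57. The glutamate receptor gene *glr-4*, of the ligand-gated channels, differed mainly at L4, at 5.19, 3.55 and 4.86 CPM in unexposed and 8.73, 8.23 and 8.99 CPM in exposed worms, with a log2 difference of -1.27.

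Genes lower at L3 were found on all 6 chromosomes of the nucleus. They made up 7.18% of the tested genes of chromosome V, 6.81% of X, 6.66% of II, 4.84% of IV, 3.87% of I and 3.72% of III, and 0 of 12 mitochondrial genes were called.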
